A study of Mus musculus with 15 samples.

Results

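Glycogen is the branched glucose store of animal cells, and the 8 genes described here make it, break it down or anchor it. They were Stbd1, Gyg, Ugp2, Gys1, Gbe1, Pygb, Pygl and Ppp1r3c, taken by symbol from the gene column of the DON, Gln-free and DRP-104 tables, where each of the 8 was found among 55291 genes. The set was chosen by results of these comparisons that were already known (the normalized counts and their fold changes), so its fold changes in those 3 comparisons are given as a description, without a p-value. The measurements were bulk RNA-seq of HY19636, a murine PDAC line from a tumor of a B6 mouse carrying p53 L/+ and Ptf1a-Cre, in which Cre is driven in the pancreatic lineage. All cultures and tumors here came from that 1 line and share its genotype. Cells were grown in 2D in DMEM with FBS and were left as controls, given DON (diazo-oxo-norleucine), a Gln analog that blocks Gln-using enzymes, at 25 µM for 24 h, or kept without Gln for 24 h, with 3 libraries in each group. Tumors came from the same cells placed in the pancreas of B6J female mice, 3 given vehicle and 3 given DRP-104, a prodrug of DON. No animal ages were used here.

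In this pathway, UGP2 makes UDP-glucose, the sugar donor. Glycogenin, the product of Gyg, lays down the first glucose primer on itself, glycogen synthase (GYS1 in most tissues) extends the chains, and the branching enzyme GBE1 adds the branch points. Phosphorylases, PYGB first described in brain and PYGL in liver, release glucose 1-phosphate from chain ends. PPP1R3C brings protein phosphatase 1 to the glycogen particle. STBD1 is a membrane protein with a starch-binding domain that can tie glycogen to membranes and to the ATG8 proteins of autophagy.

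The promoters of the members that differed most between treatments are shown first, because Stbd1 was high in both treated cultures and Gyg in only the DON cultures. Each is the 250 bases before the RefSeq start site in GRCm38.p6, read 5′ to 3′ on the strand of the gene, Stbd1 at chr5:92602801-92603050 on the plus strand and Gyg at chr3:20155117-20155366 on the minus strand, with GC boxes (GGGCGG, or CCGCCC on the other strand) in capitals.
Stbd1: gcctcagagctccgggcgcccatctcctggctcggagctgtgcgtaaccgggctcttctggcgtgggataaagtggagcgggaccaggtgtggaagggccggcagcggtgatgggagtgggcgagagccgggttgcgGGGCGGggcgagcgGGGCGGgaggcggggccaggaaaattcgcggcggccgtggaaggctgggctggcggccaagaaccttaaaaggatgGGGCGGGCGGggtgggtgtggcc
Gyg: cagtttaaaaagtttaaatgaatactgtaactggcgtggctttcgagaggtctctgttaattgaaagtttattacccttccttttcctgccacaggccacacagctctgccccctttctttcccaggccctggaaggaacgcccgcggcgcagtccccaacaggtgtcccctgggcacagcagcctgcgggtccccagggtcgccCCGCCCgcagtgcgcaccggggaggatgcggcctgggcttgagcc
The Stbd1 window held 4 GC boxes, of which the last overlaps the one before it, and was 71.2% G or C, whereas the Gyg window held 1 and was 59.6% G or C. GC boxes were also in the windows of Pygl (3), Ugp2 (3 over its 2 windows) and Gys1 (2), so they are not particular to Stbd1. GC boxes were searched after these sequences had been seen, and 32.7% of 32851 mouse windows of the same length held at least 1. The composite C/EBP-ATF element TGATGNAA was in 3.45% of all windows and, on either strand, in none of the windows of the 8 genes. The E-box CACGTG, found in 6.02% of windows, was matched for 1 member, Ppp1r3c, 98 bases before its start site. The core of the hypoxia response element, ACGTG, which overlaps the E-box, was found in 16.6% of windows and in those of Pygb, Ugp2 (1 of its 2 windows), Pygl and Ppp1r3c. RefSeq start sites differ from the gene bounds given below for some members. Most of the Gyg window lies inside the gene, which ends at 20155317. The Pygl window (70227684 to 70227933) and 1 of the 2 Ugp2 windows lie wholly inside their genes. These are matches of letters in a short window and nothing about binding was measured.

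Depth was 25.2 to 48.2 M reads in the 9 cultures and 16.3 to 20.7 M in the 6 tumors. The control columns of both culture tables carry the titles of vehicle tumors, but 5 of 5 islet and 5 of 8 fibroblast markers were at 0 in all of them, and they were used as the control cultures without a replicate number. All 7 epithelial markers were detected in every group, but their summed normalized count was 116943 to 125211 with DON against 393413 to 511217 in controls, and 158261 to 173643 without Gln against 379418 to 481785, a shift that went with the member changes below and whose part in them was not tested. Several tumors stood apart in markers of other cells. DRP-104 tumor 3 had a summed count of 1249 for 7 T cell markers against 46.1 to 90.3 in the other 5 tumors, vehicle tumor 3 had 2813 for 8 acinar markers against 164 to 1020, and vehicle tumor 2 had 384 for 5 skeletal muscle markers against 10.7 to 24.6 and 683 for 5 adipocyte markers against 72.7 to 325. Tumor changes are therefore also given with single tumors left out. Values are normalized counts, the reads of a gene divided by 1 size factor per library, unless another scale is named.

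Stbd1 lies on chromosome 5 (92603051 to 92606579, GRCm38) and was the member with the largest change in culture. Its normalized counts were 20.1, 22.5 and 18.2 in control cells and 690, 796 and 628 with DON. In the Gln-free table the same control libraries had 19.0, 21.2 and 17.5 and the Gln-free cultures 985, 1096 and 1284. The lowest treated library thus lay far above the highest control in both comparisons, and the mean was 34.8-fold higher with DON (705 ± 85.0 against 20.3 ± 2.15, SD, n = 3) and 58.3-fold higher without Gln (1122 ± 151 against 19.2 ± 1.86). On the log2(value + 1) scale these were changes of 5.05 (SE 0.20) and 5.79 (SE 0.18), which put Stbd1 at rank 17 of 13556 genes tested after DON and at rank 2 of 13390 without Gln when ordered from the largest rise. The control reads were few, 62 over 3 libraries against 2188 with DON and 3288 without Gln, so the size of the fold rests on a low denominator.

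Among the genes of synthesis, Gyg moved in opposite directions in the culture treatments. Gyg (chromosome 3, 20122084 to 20155317) had 1372, 1220 and 1002 normalized counts in control cells and 3136, 3354 and 2890 with DON, a 2.61-fold higher mean and a log2 change of 1.39 (SE 0.12). Without Gln it had 779, 832 and 740 against 1293, 1153 and 966 in the controls, a log2 change of -0.53 (SE 0.12). Neither treated group overlapped its controls.

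Gys1 (chromosome 7, 45434844 to 45456619), the synthase that elongates the chains, had 2442, 2237 and 2398 normalized counts with DON and 2360, 2760 and 2058 in controls. These groups overlapped, and the log2 change was -0.01 (95% interval -0.24 to 0.22). Without Gln its values were 1494, 1386 and 1528 against 2225, 2607 and 1984, all below the controls, with a log2 change of -0.62 (SE 0.11). Gys1 shares 3253 bases with Ruvbl2 on the opposite strand, and the sources used here do not state that counting used strand, so reads of both genes cannot be told apart there. Ruvbl2 itself changed by 0.04 after DON and by -0.30 (limma adjusted p = 0.00988) without Gln on the log2 scale.

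Ugp2 (chromosome 11, 21321138 to 21371201) showed the smallest changes among the members that were called. It had 1277, 1200 and 1257 normalized counts with DON against 1444, 1382 and 1763 in controls, and 1142, 1189 and 1045 without Gln against 1361, 1306 and 1700. The log2 changes were -0.29 (SE 0.11) and -0.36 (SE 0.11), and the call after DON was lost when any 1 of 4 of the 6 libraries was left out, the 3 DON libraries and the control library with 1763. In that last fit the log2 change was -0.18. It was also lost under quantile normalization (-0.21) and at a threshold of 0.01. The call without Gln was lost without Gln-free library 3 (-0.31) and at a threshold of 0.01.

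Gbe1 (chromosome 16, 70313949 to 70569716), the branching enzyme, was low in both treatments. Its normalized counts were 148, 116 and 112 with DON against 375, 385 and 431, and 117, 145 and 154 without Gln against 353, 363 and 416. The groups did not overlap, and the log2 changes were -1.66 (SE 0.17) and -1.45 (SE 0.16).

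**Figure D1:**
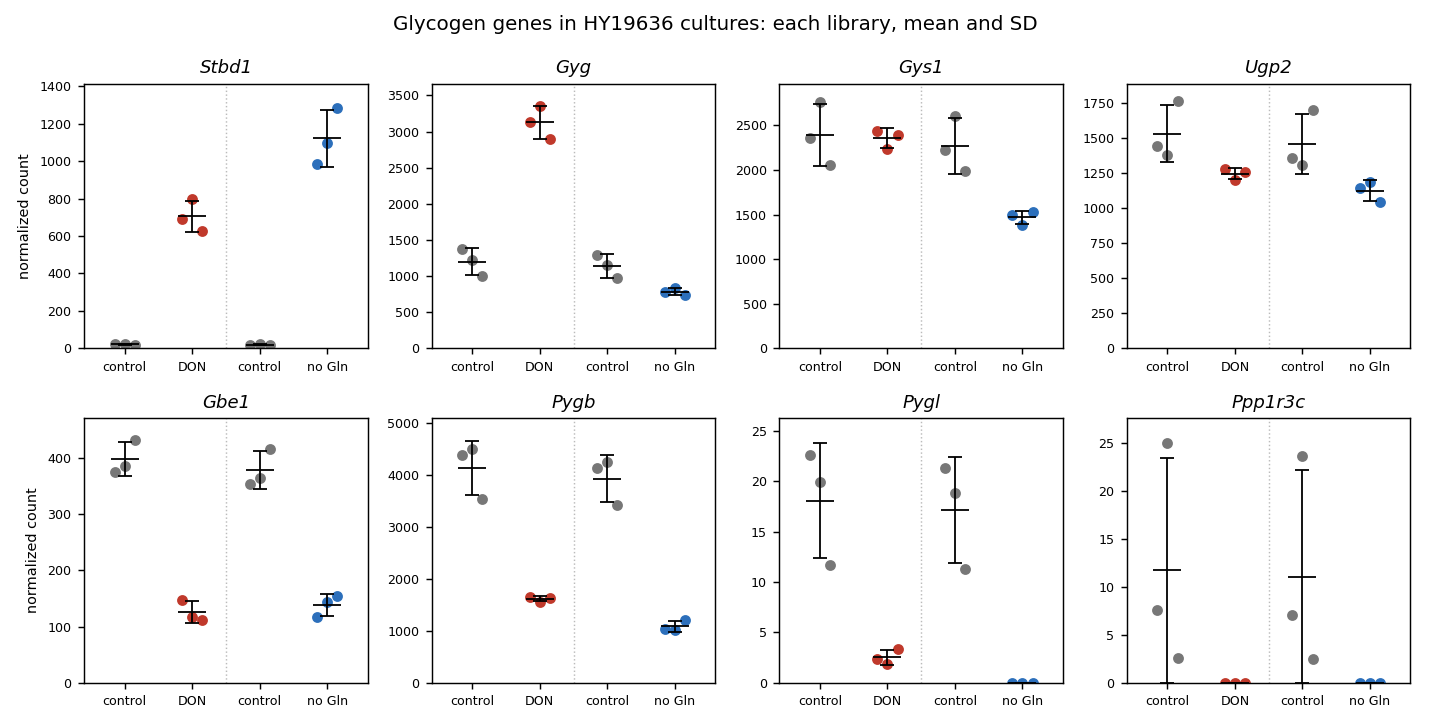
Normalized counts (y axis, from 0) of each member in HY19636 cultures, with 1 point per library, the mean as a horizontal bar and the SD as whiskers, cut at 0 (n = 3). The dotted line separates the DON table from the Gln-free table, which hold the same control libraries under different size factors. Stbd1 reached 628 to 796 with DON and 985 to 1284 without Gln, Gyg was high with DON alone, and Pygb, Gbe1 and Pygl were low in both treatments.

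Both member phosphorylases were low in the treated cultures. Pygb (chromosome 2, 150786735 to 150831758) had 4384, 4488 and 3539 normalized counts in controls and 1652, 1560 and 1640 with DON, and for the Gln-free comparison it had 4131, 4240 and 3413 in controls and 1038, 1019 and 1203 without Gln. Each treated value was below each control value, with log2 changes of -1.35 (SE 0.10) and -1.85 (SE 0.11). Pygl (chromosome 12, 70190811 to 70231488) was close to the limit of detection. It had 2.39, 1.85 and 3.36 normalized counts with DON (8 reads in all) against 22.6, 19.98 and 11.7 in controls (52 reads), so that control reads, corrected for depth, were 6.45 times the DON reads (95% interval 3.04 to 15.7, exact binomial, counting error only). Without Gln Pygl had 0 reads in 3 of 3 libraries against 21.3, 18.9 and 11.3 normalized counts, and the control mean was at least 5.58-fold higher, taking 3 reads per library as the limit that a count of 0 allows. Of genes with 1 to 20 reads in a culture library, 69.6% to 72.7% had an even number. Reads may therefore not be independent, the interval may be too narrow and the limit of 3 reads may be too low.

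Ppp1r3c (chromosome 19, 36731737 to 36736653), the phosphatase-targeting subunit, had 7.55, 25.0 and 2.60 normalized counts in controls of the DON table and 0 in 3 of 3 DON libraries. In the Gln-free table the controls had 7.11, 23.6 and 2.51 and the Gln-free libraries 0 in 3 of 3. Against the same limit of 3 reads per library, the control means were 3.96-fold and 3.60-fold higher, but these are not lower bounds. A single control library held most of the signal, and another, at 2.60 and 2.51, was itself under the limit of 2.96 and 3.08. The mean of this gene was under the minimum of 10 in both tables, so it was not tested there.

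Counted over the members, 7 of 8 could be tested after DON, where 2 were called higher and 4 lower, beside 68.1% of the 13556 genes tested. Without Gln 6 of 8 could be tested and 1 was called higher and 5 lower, beside 69.4% of 13390 genes, with Pygl and Ppp1r3c left out for low values. Pygl passed the filter after DON through its control libraries alone. The median log2 change of the members tested was -0.29 after DON and -0.57 without Gln, beside 0.02 and 0.01 for all genes tested. Since these comparisons chose the members and share the control libraries, nothing is read from these counts.

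The culture treatments were then set against each other in 1 fit of the 9 libraries on a common scale, to ask where DON and the absence of Gln differed. Of 6 members tested, 4 differed, 3 higher with DON and 1 higher without Gln, beside 63.3% of 13514 genes, so the share of the members was close to that of all genes. Gyg differed most, with 3075 ± 232 with DON and 793 ± 47.1 without Gln (SD, n = 3; log2 difference 1.95, SE 0.11, limma adjusted p = 9.74e-10). Gys1 had 2320 ± 101 and 1487 ± 75.1 (0.64, SE 0.10, adjusted p = 3.64e-05) and Pygb 1591 ± 46.4 and 1100 ± 102 (0.54, SE 0.10, adjusted p = 0.000207). Stbd1 was lower with DON than without Gln, 693 ± 84.7 against 1135 ± 153 (-0.71, SE 0.15, adjusted p = 0.000823). For Gbe1 the difference was -0.18 (95% interval -0.54 to 0.18, adjusted p = 0.359) and for Ugp2 0.11 (-0.11 to 0.32, adjusted p = 0.377), and their groups overlapped. These p-values use libraries that were in view when the members were chosen and are no independent evidence, and no source used here says that libraries of a group came from separate cultures, so they measure only the spread between these libraries.

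**Figure D2:**
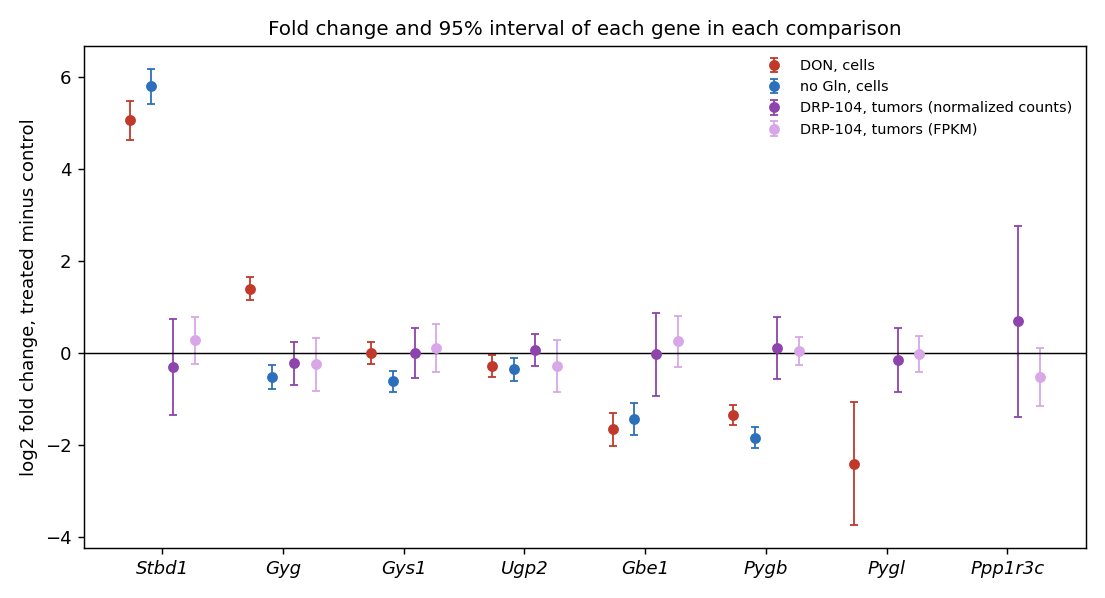
Log2 fold change of each member (y axis, treated minus control, log2 of value + 1) with its 95% limma interval in the DON, Gln-free and DRP-104 comparisons, the last in normalized counts and in FPKM. Pygl without Gln and Ppp1r3c in both culture comparisons were not tested and are not drawn. Intervals of all 8 members include 0 in tumors, and Stbd1 stands at 5.05 and 5.79 in cells.

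Per length of transcript the order of the members changed with treatment. In reads per kb of transcript per M reads, control cells had Pygb first with a level of 31.9 ± 2.57 (SD, n = 3), followed by Gys1 (19.6 ± 2.19), Gyg (18.8 ± 2.14) and Ugp2 (17.3 ± 3.21), whose neighbours overlapped, and Gbe1 at 3.22 ± 0.410. Stbd1 was at 0.308 ± 0.022, Pygl at 0.181 ± 0.050 and Ppp1r3c at 0.127 ± 0.126, of which the last pair overlapped. With DON Gyg came first (54.3 ± 3.76) and Stbd1, at 11.8 ± 1.38, overlapped Pygb at 13.8 ± 0.459. Without Gln Stbd1 was first at 19.4 ± 2.78, above Ugp2 (14.3 ± 0.840), Gyg (13.9 ± 0.751) and Gys1 (13.7 ± 0.761), and Pygb was at 9.52 ± 0.968.

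PYGB was the main phosphorylase transcript in cells, with Pygb taking 98.9% to 99.3% of the summed levels of Pygb, Pygl and Pygm (the muscle isozyme) in control libraries and 68.8% to 85.1% in vehicle tumors. With DON this share was 95.9% to 97.0% and without Gln 95.4% to 98.2%. The liver synthase Gys2 had 0 reads in every culture and tumor library of the normalized counts.

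**Figure D3:**
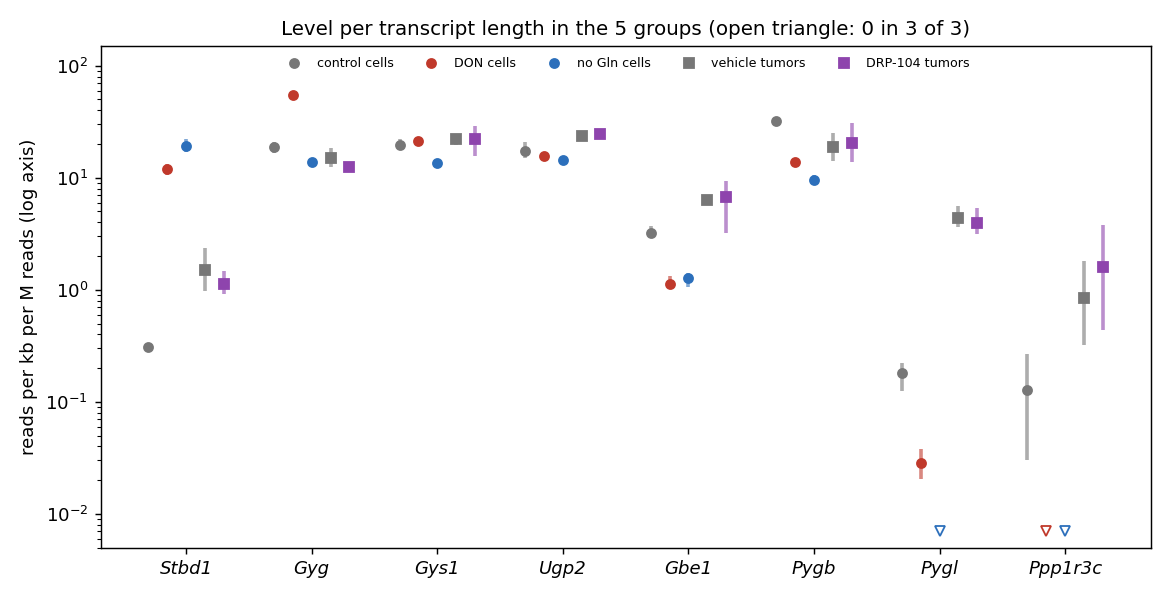
Reads per kb of transcript per M (mega) reads (y axis, log axis) of each member in the 5 groups, with points for the mean and bars from the lowest to the highest of 3 libraries. Open triangles at the bottom stand for 0 in 3 of 3 libraries. Stbd1 moves from 0.308 in control cells to 19.4 without Gln, and Pygl is at 4.39 in vehicle tumors and 0.181 in control cells.

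The profile of Stbd1 over the 9 cultures was most like those of Pcmt1, Leprotl1, Ghitm, Zfp566 and Cnppd1 among 13513 genes, with Pearson r of 0.9955 to 0.9965 on the log2 scale. Pearson r takes no account of the size of a change, and all of these genes rose far less than Stbd1. Pcmt1 rose least, with means of 2279 in controls, 3179 with DON and 3286 without Gln. Zfp566 rose most, with means of 105, 388 and 461. Among members tested over the same libraries, r with Stbd1 was -0.97 for Pygb, -0.95 for Gbe1, -0.85 for Ugp2, -0.55 for Gys1 and 0.13 for Gyg. The points are 3 groups of 3 libraries that share their treatment, so these values describe the groups.

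In tumors the question was whether the prodrug moved the same genes, and no member was called. Stbd1 had 84.9, 44.5 and 36.6 normalized counts with vehicle and 38.5, 55.4 and 33.3 with DRP-104, overlapping groups with a log2 change of -0.31 (95% interval -1.36 to 0.73). Without vehicle tumor 1, the tumor with 84.9, the change was 0.04, and over the fits that left out 1 tumor each it lay between -0.56 and 0.04, so its direction rests on that tumor. Without DRP-104 tumor 3 it was -0.16 and without vehicle tumors 2 and 3 in turn -0.42 and -0.56. The upper end of the interval is far under the changes in cells, but those changes chose the members. Dose, duration and host cells also differ between cells and tumors. Gyg had 427, 686 and 524 with vehicle and 477, 423 and 468 with DRP-104 (-0.23, -0.71 to 0.24). Gys1 had 1636, 1397 and 1485 with vehicle and 1631, 1992 and 1036 with DRP-104 (0.00, -0.54 to 0.53), and Ugp2 1041, 1219 and 1314 against 1362, 1156 and 1207 (0.06, -0.28 to 0.41). The groups of these 4 genes overlapped. Leaving out 1 tumor at a time gave -0.40 to -0.05 for Gyg (-0.25 without DRP-104 tumor 3), -0.21 to 0.26 for Gys1 and -0.03 to 0.14 for Ugp2 (0.08 without DRP-104 tumor 3).

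Gbe1 had 380, 487 and 463 normalized counts with vehicle and 553, 663 and 216 with DRP-104, and its log2 change of -0.04 became 0.46 without DRP-104 tumor 3, the tumor with the high T cell markers. Pygb had 1745, 1059 and 1255 with vehicle and 1077, 1226 and 2179 with DRP-104, a log2 change of 0.10 that became -0.20 without the same tumor. Ppp1r3c had 87.6, 16.7 and 21.2 with vehicle and 23.5, 30.0 and 188 with DRP-104, and its change of 0.68 became -0.24. For Gys1 the value without it was 0.26. DRP-104 tumor 3 thus held the lowest Gbe1 and Gys1 and the highest Pygb and Ppp1r3c of its group. Vehicle tumor 1, with a T cell marker sum of 90.3, likewise held the lowest Gbe1 and the highest Pygb and Ppp1r3c of its group, but the highest Gys1. T cell markers were not the only ones to stand apart. DRP-104 tumor 3 also had the highest epithelial sum of all tumors (173877) and the lowest fibroblast (18611) and endothelial (1362) sums. Vehicle tumor 1, in contrast, had the lowest epithelial sum (116910). What any of these markers have to do with the member values was not tested. Pygl had 214, 318 and 208 with vehicle and 318, 185 and 173 with DRP-104 (-0.16, -0.86 to 0.54), and its change was 0.00 without DRP-104 tumor 3, 0.04 without vehicle tumor 2 and -0.44 without DRP-104 tumor 1.

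Of 8 members tested in tumors 0 were called, beside 0% of 15454 genes by limma, of which 775 had an unadjusted p under 0.05. DESeq2 on the reads recovered from the same table called 56 genes and edgeR 0, with 0 members among them. A second deposited measure, FPKM (fragments per kilobase per M fragments), has columns named like these tumors whose values do not follow theirs (the highest correlation between columns of the same name was 0.0864 over 10187 genes), and it was compared by group. Again 0 of 8 members were called, beside 0% of 14183 genes by limma (1079 with an unadjusted p under 0.05). The FPKM groups also differed in islet markers, with a sum over 5 genes of 311 to 1137 with DRP-104 and 12.7 to 217 with vehicle. For 8 acinar markers the highest DRP-104 column had 3591, against 173 to 979 with vehicle. The part of these cells in the member values was not tested. Stbd1 had FPKM values of 1.62, 2.65 and 3.05 with vehicle and 3.96, 2.75 and 2.64 with DRP-104, a log2(FPKM + 1) change of 0.27 (95% interval -0.23 to 0.77, limma adjusted p = 0.647). Ppp1r3c had 1.02, 2.91 and 1.20 with vehicle and 1.03, 0.548 and 0.873 with DRP-104 (-0.52, -1.15 to 0.11, limma adjusted p = 0.629), where the normalized counts had a positive value. The other 6 members had FPKM changes between -0.29 (Ugp2) and 0.25 (Gbe1), and all groups overlapped.

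**Figure D4:**
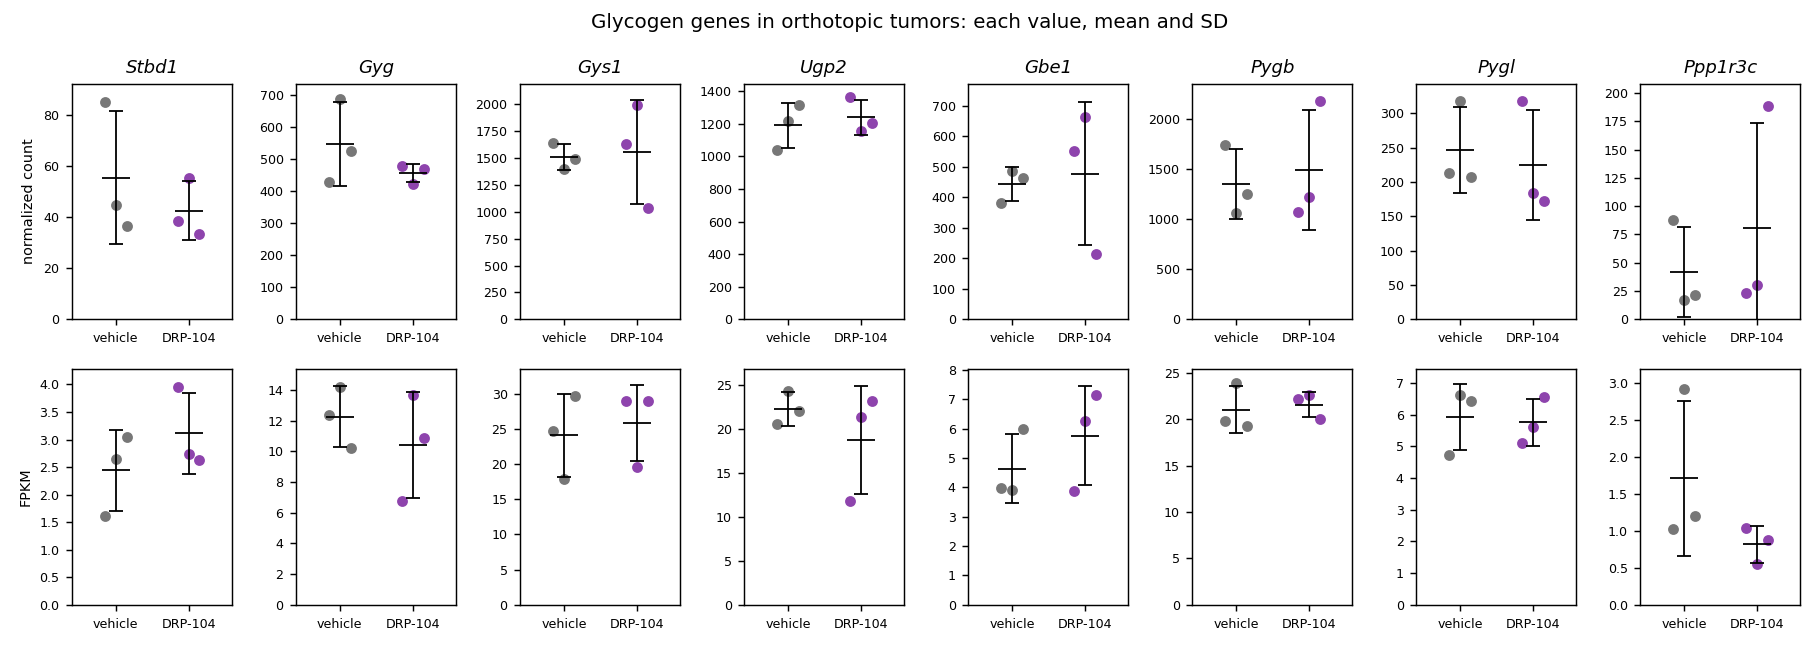
Values of each member in orthotopic tumors, normalized counts in the upper row and FPKM in the lower row (y axes from 0), with 1 point per tumor, the mean as a bar and the SD as whiskers, cut at 0 (n = 3). The vehicle and DRP-104 points overlap for every member in both rows, and Gbe1 and Ppp1r3c in the upper row are each spread by 1 DRP-104 tumor, at 216 and 188.

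The difference between the DRP-104 effect in tumors and the DON effect in cells was also fitted as an interaction. It was called for 6 of 8 members, 4 positive and 2 negative, beside 33.1% of 15070 genes, and the difference between the DRP-104 effect and the Gln-free effect for 5 of 8, 4 positive and 1 negative, beside 36.7% of 14979 genes. The culture effects chose the members and no tumor effect was called. Such calls were therefore expected before the test, nothing is read from them, and the differences are a description. For Stbd1 the differences were -5.36 (SE 0.47) and -6.10 (SE 0.46). For Gyg they were -1.63 (SE 0.24) against DON and 0.29 (95% interval -0.22 to 0.81) against the Gln-free effect. Pygb differed by 1.45 (SE 0.33) and 1.95 (SE 0.33) and Gbe1 by 1.62 (SE 0.45) and 1.41 (SE 0.45). The Gbe1 difference against the Gln-free effect lost its call in 7 of 16 alternatives, with values down to 0.91 and adjusted p up to 0.266, and that against DON in 2 of 16. Without DRP-104 tumor 3 the Gbe1 differences were 2.12 and 1.90 and those of Pygb 1.14 and 1.65. The culture effect in each difference is a comparison that chose the members, the Pygl and Ppp1r3c differences rest on culture values at or near 0 and move with the pseudocount, and dose, duration and host cells also differ between cells and tumors, so their parts cannot be told apart.

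The tumors hold host cells as well. Per length, vehicle tumors had more Pygl than control cells, 4.39 against 0.181 reads per kb per M (24.3-fold). They also had more Ppp1r3c (6.60-fold), Stbd1 (4.90-fold), Gbe1 (1.97-fold) and Ugp2 (1.37-fold), and less Pygb (0.585-fold). None of these overlapped, while Gys1 and Gyg did. The share of all genes without overlap was not computed, so nothing is read from this about the members. Cells and tumors share no scaling here beyond length and reads per M, and their low counts differ in kind. Even values made up 41.9% to 44.0% of counts from 1 to 20 in vehicle tumor libraries, against 69.6% to 72.0% in control libraries. Whether this difference moved the tumor to cell ratios was not tested. Over 8 fibroblast markers the summed normalized count was 39249 to 83198 in vehicle tumors and 18611 to 32447 in DRP-104 tumors, against 478 to 646 in control cells of the DON table. In FPKM the same list had 752 to 1228 with vehicle and 1013 to 2965 with DRP-104. The part of host cells in the member values was not tested, and in bulk tumors fewer cells of a type and less RNA per cell cannot be told apart.

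The rest of the pathway was followed in a list of 29 further genes for synthesis, breakdown, phosphorylase kinase, protein phosphatase 1, the synthase kinases GSK3, the laforin and malin pair and glucose 6-phosphate handling. Of 21 tested after DON, 6 rose and 9 fell, and of 21 tested without Gln, 6 rose and 12 fell, both by limma at an adjusted p under 0.05. The share called was 71.4% after DON and 85.7% without Gln, beside the 68.1% and 69.4% of all genes given above, and the list medians were -0.06 and -0.44 on the log2 scale. In tumors 0 of 23 were called in normalized counts and 0 of 23 in FPKM.

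Of the genes counted as risen, Phkg1 and Pygm had control means under the minimum of 10 and passed the filter through their treated libraries alone. Their treated means therefore had to be the higher ones, and they are described without a p-value. Both remain in the counts and shares above. Phkg1, a catalytic subunit of phosphorylase kinase, had 30.9 ± 6.85 normalized counts with DON against 1.69 ± 1.92 (log2 change 3.82, SE 0.69) and 22.3 ± 4.06 without Gln against 1.60 ± 1.81 (3.41, SE 0.70). Pygm, the muscle phosphorylase, had 39.6 ± 7.95 with DON against 8.86 ± 3.26 (2.07) and 25.1 ± 10.5 without Gln against 8.40 ± 3.02 (1.44), higher where the member phosphorylases were lower. Phka2, a regulatory subunit of the same kinase, fell by 0.98 on the log2 scale after DON (limma adjusted p = 5.18e-06) and fell by 2.08 without Gln (adjusted p = 1.44e-08). The gene listed as Pgm1, a phosphoglucomutase that links glucose 1-phosphate to glucose 6-phosphate, fell by 1.59 after DON (adjusted p = 4.56e-08) and fell by 2.69 without Gln (adjusted p = 1.88e-09). The symbols Pgm1 and Pgm2 have been exchanged between mouse annotations, and the normalized counts come without identifiers. In vehicle tumors Pgm1 had a mean of 2207 normalized counts and Pgm2 712, but 16.8 and 40.4 in FPKM. These symbols may therefore not stand for the same genes in both measures, and which gene is meant was not settled here.

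A single gene of the list was called with opposite signs in the culture comparisons, as Gyg was. G6pc3, a glucose 6-phosphatase found in most tissues, had 860 ± 80.1 against 609 ± 101 normalized counts after DON (0.51, limma adjusted p = 0.00455) and 422 ± 45.3 against 578 ± 90.4 without Gln (-0.45, adjusted p = 0.0128). Its difference between DON and Gln-free cells was 0.99 (SE 0.13). Opposite calls in these same libraries named the gene, so that difference was expected before the test and is a description.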

How the data were processed

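RNA was measured in 15 samples, 3 per group. The full genotype of the line is not reported here. Per the methods, Novogene made the libraries for the authors, aligned reads with HISAT2 and ran DESeq2, and the submitters' processing notes also name STAR 2.5 and GRCm39. The deposited FPKM table has GRCm38 coordinates. The deposited signal in each comparison table holds read counts per gene scaled by 1 size factor per library, and whole reads were recovered from at least 99.99% of values (tolerance 0.0051). The authors' FPKM values cover the tumors alone.

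Members and gene lists were chosen with earlier results of these data known. limma 3.58.1 (lmFit, eBayes with trend, R 4.3.3) took log2(value + 1), after a filter that kept genes averaging at least 10 (FPKM 0.5), p-values were adjusted by Benjamini-Hochberg over all genes tested, and genes were called under 0.05. The direct comparison of both culture treatments used recovered reads under common size factors. All fits were tested on simulated data: of 4-fold changes, 100% were called in the DON fit and 79% in that of the tumor counts. Of 2-fold changes, 99% and 25% were called. Named genes are the members, the 3 list genes with the largest called change in each culture comparison, isozymes of members, list genes called with opposite signs in both cultures, and the 5 genes most like Stbd1 by Pearson r. Gyg and Stbd1 promoters were from RefSeq, where all 8 members matched. Lengths came from the FPKM table. edgeR 4.0.16, DESeq2 1.42.0, other filters, pseudocounts and thresholds, quantile normalization, a replicate block and leaving out each library were alternatives. Read counts have no molecular identifiers, so limits set from reads cover counting error only. The authors' own fold changes and p-values in the tables were not used. Python 3.11.15, numpy 2.4.6, pandas 2.3.3, scipy 1.17.1 and matplotlib 3.10.9 were used.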

Additional observations from a re-analysis of the deposited data

Results flagged for a closer look

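The fitted difference between the effect of DRP-104 in tumors and that of DON in cells (limma interaction, tumor effect minus cell effect on the log2 scale) passed the threshold in 6 members. The members were chosen by the DON values that enter it, and no tumor effect was called, so a difference was expected before the test, and these values are a description. They were -5.36 for Stbd1, -1.63 for Gyg, 1.45 for Pygb and 1.62 for Gbe1. The Stbd1 difference sets a rise from 20.3 to 705 normalized counts in cells beside 55.3 and 42.4 in vehicle and DRP-104 tumors, and that of Gyg a rise from 1198 to 3127 in cells beside 546 and 456 in tumors. The other values, 2.25 for Pygl and 3.90 for Ppp1r3c, are of genes at 8 and 0 reads over the DON libraries that passed the filter where they were high, and their size is set by the pseudocount, at 1.13 and 1.73 with a pseudocount of 8.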

How the results depend on the processing

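The counts of members called after DON (6; 5 to 7 over all alternatives), without Gln (6; 5 to 8), in tumors (0 in normalized counts and in FPKM) and between DON and Gln-free cells (4; 4 to 5) stayed within 1.5 times their values. For the DRP-104 effect minus the DON effect the count was 6, and 3 under quantile normalization (Stbd1, Pygb and Gyg kept their call, and Gbe1, Pygl and Ppp1r3c lost it). For the DRP-104 effect minus the Gln-free effect it was 5, and 3 under quantile normalization and at a threshold of 0.01, with 3 to 6 when 1 library was left out, the 3 without Gln-free library 1. Quantile normalization moved the median of all genes after DON from 0.02 to 0.13 on the log2 scale, and the Stbd1 change after DON stayed between 4.65 and 5.15 over these and the other settings, and between 4.96 and 5.13 without 1 library. The Ppp1r3c difference against DON lost its call in 11 of 16 alternatives. In tumors DESeq2 called 56 genes, and the FPKM fit called 1 without the first DRP-104 or the first vehicle column. The replicate block could be fitted for tumors (0 members called) and, added after the data were seen, for DON against Gln-free cells (4 members, 9237 genes against 8549). It changed no call of a member. Same-numbered libraries correlated at -0.36 to 0.04 in tumors and at -0.03 to 0.07 in cells, so the numbers were not taken as pairs. The planned block fits for DON or Gln-free cells against controls, for FPKM and for the interactions were not run, because control and FPKM columns carry no number that could be tied to a sample. In tumors 25% of simulated 2-fold changes were called, which limits what a count of 0 shows there. The cause of the changes with settings was not tested.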

Other observations

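STBD1 can bind proteins of the GABARAP branch of the ATG8 family, which attach to autophagosome membranes, and 3 of their genes were measured in cells. Gabarap rose after DON by 0.84 on the log2 scale (SE 0.10, limma adjusted p = 4.9e-06) and had a change of 0.13 without Gln (adjusted p = 0.224). Gabarapl2 rose after DON by 0.42 (adjusted p = 0.00102) and without Gln by 0.87 (adjusted p = 1.03e-06). Gabarapl1 had changes of 0.21 (adjusted p = 0.0759) and -0.11 (adjusted p = 0.333). All 3 differed between DON and Gln-free cells, Gabarap by 0.75 (adjusted p = 1.82e-06), Gabarapl1 by 0.36 (adjusted p = 0.00315) and Gabarapl2 by -0.42 (adjusted p = 0.000164). Of all genes tested, 63.3% were called in that comparison, 68.1% after DON and 69.4% without Gln. Nothing is therefore read from the count of these genes called. In tumors 0 of 3 were called in normalized counts or in FPKM.

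Gaa, the lysosomal enzyme that digests glycogen, rose after DON from 2429 ± 361 to 6360 ± 505 normalized counts (log2 change 1.40, SE 0.11, limma adjusted p = 8.07e-08) and had 1933 ± 201.2 against 2306 ± 319 without Gln (-0.25, adjusted p = 0.0687), and its difference between DON and Gln-free cells was 1.68 (SE 0.11, adjusted p = 4.2e-09). It was chosen after its values were seen.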
